A study of Homo sapiens with 6 samples.

Results

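The genes described here act in homologous recombination, in the Fanconi pathway and in the DNA damage checkpoint. They are 34 genes taken by symbol from a list of these pathways, out of 33392 genes in the expression table, and all 34 had a row. They form 3 groups, namely 17 recombination genes, 12 Fanconi genes and 5 checkpoint genes. The cells were HK-2, an immortalised human epithelial line of kidney proximal tubule origin. As background, this line was made with papillomavirus oncogenes that act on p53 and on the retinoblastoma protein family. All 6 libraries came from cells treated with TGF-β1, a cytokine that drives kidney fibrosis, at a labelled time of 48 h. Of these, 3 came from cells given a scramble siRNA as control and 3 from cells given siRNA against the protein kinase DYRK2 (siDYRK2). No library without TGF-β1 and none without an siRNA was analysed here. Whether the replicates were separate cultures is not in the labels, so each p-value reflects the spread among these samples only, and that spread may be technical.

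Homologous recombination repairs a broken DNA molecule by copying its sister. Nucleases first trim the broken end to a single strand, the BRCA proteins then help to prepare that strand for pairing with the sister, and helicases and topoisomerase complexes later separate the joined molecules. The Fanconi pathway acts on strands joined by a covalent crosslink. Its core complex attaches ubiquitin to the FANCD2 and FANCI proteins, after which nucleases and recombination complete the repair. The checkpoint kinases ATM and ATR sense breaks and single-stranded DNA and pass the signal to CHEK2 and CHEK1, which hold the cell cycle. Many of these genes are known to be transcribed most in S phase and G2. In the kidney tubule, an arrest in G2/M is a known companion of fibrosis.

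The targeted gene stood at 5.84, 6.06 and 5.96 FPKM (fragment abundance scaled by transcript length and library total) in the scramble libraries and at 1.45, 1.54 and 1.49 FPKM in the siDYRK2 libraries, so DYRK2 was at 0.251 of its scramble mean. FPKM values summed to 252318 to 255378 per library, and mitochondrially encoded transcripts took 26.3% to 27.8% of that sum. The sequencing depth is unknown, because FPKM does not hold it. The epithelial markers KRT8, KRT18, KRT19, EPCAM and CDH1 were all present, whereas 7 proximal tubule transport and brush border genes with a row reached at most 0.35 FPKM. Of the 5 epithelial markers KRT18, KRT19 and CDH1 were lower with siDYRK2, and their part in the repair genes' values was not tested. Fibroblast markers reached at most 0.63 FPKM and endothelial markers at most 0.04 FPKM. Among the immune markers CD68, which is not restricted to immune cells, lay at 11.1 to 17.5 FPKM with overlapping groups, and LYZ did not exceed 0.05 FPKM.

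Most of these repair genes were expressed more with the DYRK2 siRNA, by modest amounts. A mean of 0.5 FPKM or more was reached by 33 of them and, in all, by 15121 genes, which were tested. Of the 33, 22 were higher (66.7%, beside 20.4% of all genes tested) and 2 were lower (beside 17.9%, with 38.3% of all genes called either way), by limma on log2(FPKM + 0.5) at an adjusted p under 0.05. The other 9 were not called. FANCB, below 0.5 FPKM on average, was not tested. The 3 siDYRK2 libraries lay above the 3 scramble libraries for 27 of the 33 genes (beside 27.4% of all genes tested) and below them for 3 (beside 24.3%). The median log2 fold change of the 33, taken as siDYRK2 minus scramble throughout, was 0.27, with a range from −0.49 for FANCC to 0.87 for EXO1. All genes tested had a median of 0.01 and quartiles of −0.17 and 0.17. In bulk RNA, more cells in a given state and more RNA per cell cannot be told apart.

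The recombination group, which is the largest, had the most genes called higher. The values of the 3 groups covered overlapping ranges, and no difference between groups was tested. Of the recombination genes 13 of 17 were higher and 0 lower, and their median log2 fold change was 0.32. Of the Fanconi genes 6 of the 11 tested were higher and 1, FANCC, was lower, with a median of 0.25. At a minimum mean of 2 FPKM the order of these medians turned, with 0.48 for the Fanconi and 0.29 for the recombination genes. Among the checkpoint genes 3 of 5 were higher and 1, ATM, was lower, with a median of 0.16. Beside these counts, 20.4% of all genes tested were called higher and 17.9% lower. The share called lower was 9.1% of the Fanconi and 20% of the checkpoint genes tested, so neither is far above that background. The siDYRK2 libraries all lay above the scramble libraries for 13 of 17 recombination, 10 of 11 Fanconi and 4 of 5 checkpoint genes. Over all genes tested this share was 27.4%. Relative to the scramble mean, the recombination median lay at 0.29, 0.30 and 0.26 in siDYRK2 libraries 1 to 3, the Fanconi median at 0.25, 0.30 and 0.26, and the checkpoint median at 0.17, 0.18 and 0.17. No siDYRK2 library stood apart from the other 2 in these medians.

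**Figure D1:**
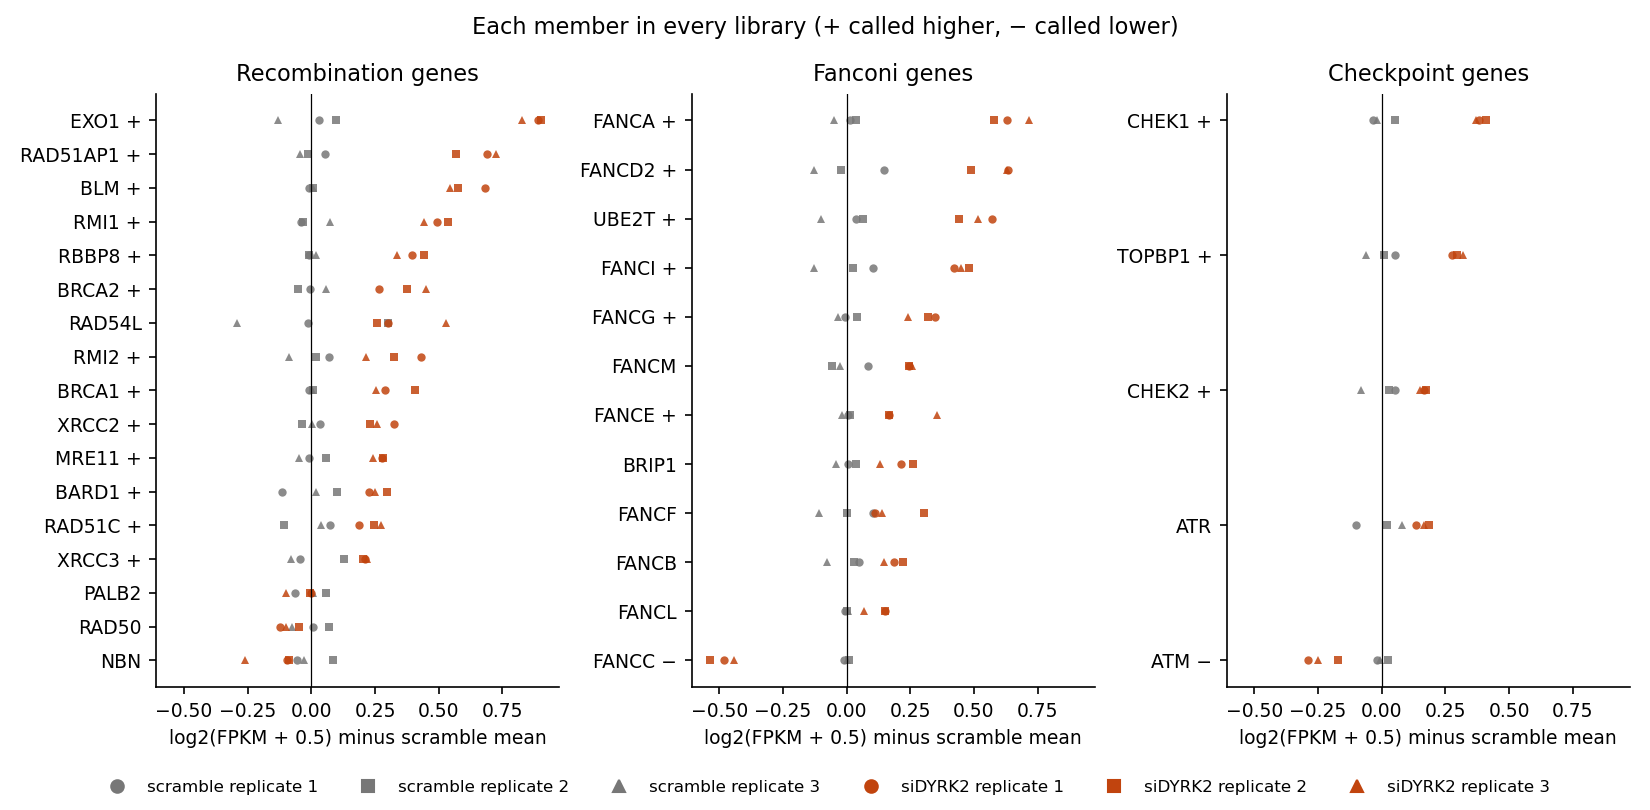
Each of the 34 genes in every library, as log2(FPKM + 0.5) minus the mean of its 3 scramble libraries, by group; gray marks are scramble and orange marks siDYRK2 libraries, with the replicate number as the mark's shape. Most orange marks lie to the right of the gray ones, while FANCC and ATM lie to the left; FANCB is drawn but was not tested.

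Because many of the genes moved together, the sequence around their RefSeq start sites was read. RefSeq promoter windows of 300 bases (GRCh38.p14; 250 bases before the start and 50 after) were matched for 31 of the 34 genes, without FANCI, RMI2 and NBN. The RefSeq start lies 44844 bases from the GENCODE start of BRCA1 used here for its neighbours, so the BRCA1 window is not the sequence before that start. It lies 439 bases away for RMI1, 255 for CHEK1 and 235 for ATM, and none of these 4 windows is shown. Both strands were searched for the E2F words TTTCCCGC, TTTCGCGC, TTTGCCGC and TTTGGCGC, for their 7-letter cores (each word without its first T), for the CCAAT box bound by NF-Y, and for the CHR element, written TTTGAA or else TTCGAA. An E2F core stood in 16 of the 31 windows (51.6%), compared with 21.3% of 10382 tested genes and 13.1% of 27305 RefSeq promoters. It was in 7 of 15 recombination, 8 of 11 Fanconi and 1 of 5 checkpoint windows. By call, it was in 11 of 20 windows of higher genes, 4 of 8 of genes not called and 1 of 2 of lower genes. The full words, each of which contains a core, were in 6 windows (19.4%), compared with 5.53% of tested genes. CCAAT stood in 15 windows (48.4%), compared with 36.6% of tested genes, and the CHR words in 4 (12.9%), compared with 10.6%. A match describes letters only and is no evidence of a bound factor.

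The last 200 bases before the start are shown for 6 genes, chosen so that each group, a gene with and a gene without an E2F core, and the lower gene FANCC are represented. They cover chr12:4538690-4538889 (plus strand) for RAD51AP1, chr15:90717146-90717345 (plus strand) for BLM and chr16:89816648-89816847 (minus strand) for FANCA. The other three are chr1:202341937-202342136 (minus strand) for UBE2T, chr3:133661942-133662141 (minus strand) for TOPBP1 and chr9:95317710-95317909 (minus strand) for FANCC. Each runs 5′ to 3′ toward the gene, and capitals mark E2F words and cores, CCAAT boxes and CHR words on either strand.
RAD51AP1: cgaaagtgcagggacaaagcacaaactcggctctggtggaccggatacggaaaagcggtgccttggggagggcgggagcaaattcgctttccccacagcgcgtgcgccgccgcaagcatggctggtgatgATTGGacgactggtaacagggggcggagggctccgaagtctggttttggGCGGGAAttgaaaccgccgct
BLM: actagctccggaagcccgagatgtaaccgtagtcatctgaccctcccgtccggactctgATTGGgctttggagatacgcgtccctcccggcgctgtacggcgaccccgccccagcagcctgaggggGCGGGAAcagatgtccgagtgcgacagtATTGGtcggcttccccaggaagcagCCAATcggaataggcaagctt
FANCA: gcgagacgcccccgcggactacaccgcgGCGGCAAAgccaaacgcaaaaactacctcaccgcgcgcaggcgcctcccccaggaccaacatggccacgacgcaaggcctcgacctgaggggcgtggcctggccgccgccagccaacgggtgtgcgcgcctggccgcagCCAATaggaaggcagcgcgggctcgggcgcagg
UBE2T: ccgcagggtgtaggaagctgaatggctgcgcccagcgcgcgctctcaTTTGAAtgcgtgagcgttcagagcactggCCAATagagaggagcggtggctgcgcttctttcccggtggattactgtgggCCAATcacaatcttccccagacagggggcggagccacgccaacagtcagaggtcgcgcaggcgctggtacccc
TOPBP1: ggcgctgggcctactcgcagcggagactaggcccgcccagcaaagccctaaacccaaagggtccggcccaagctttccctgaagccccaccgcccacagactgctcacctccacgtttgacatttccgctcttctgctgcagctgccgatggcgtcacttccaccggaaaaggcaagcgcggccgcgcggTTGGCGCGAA
FANCC: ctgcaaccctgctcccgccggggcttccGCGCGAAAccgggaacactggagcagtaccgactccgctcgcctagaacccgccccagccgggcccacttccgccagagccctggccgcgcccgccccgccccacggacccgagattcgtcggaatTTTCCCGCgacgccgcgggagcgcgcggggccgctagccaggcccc
RAD51AP1 and BLM show an E2F core as GCGGGAA beside CCAAT boxes, written ATTGG where they lie on the other strand. FANCA shows an E2F word and a CCAAT box, and TOPBP1 shows overlapping E2F cores next to its start. UBE2T shows CCAAT boxes and a CHR word and no E2F core. FANCC, the lower gene, shows an E2F word in each orientation and no CCAAT box.

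Among the recombination genes the nuclease EXO1, which extends the trimming of broken ends, had the largest change. Its FPKM was 5.97, 6.28 and 5.29 with the scramble siRNA and 11.23, 11.33 and 10.73 with siDYRK2. The groups were far apart, and the scramble values (SD 0.506 FPKM) were more spread than the siDYRK2 values (SD 0.322 FPKM). EXO1 rose 1.90-fold in mean FPKM, or 0.87 on the log2(FPKM + 0.5) scale (SE 0.0636, limma adjusted p = 8.3e-05). RBBP8 encodes CtIP, which starts the trimming together with the MRE11 nuclease, and was the most abundant of the 34 genes. It read 34.18, 34.20 and 34.83 FPKM in the scramble and 45.34, 46.86 and 43.50 FPKM in the siDYRK2 libraries, without overlap. RBBP8 rose 1.32-fold (log2 fold change 0.39, SE 0.0349, limma adjusted p = 2.1e-04).

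The MRE11, RAD50 and NBN proteins form 1 complex that binds broken ends, and of the 3 transcripts MRE11 alone was called. MRE11 rose from 4.87 ± 0.203 to 5.96 ± 0.0954 FPKM (± SD, n = 3), a log2 fold change of 0.27 at a limma adjusted p of 0.0039. RAD50, at 6.33 ± 0.351 and 5.92 ± 0.168 FPKM, was not called, with a 95% interval of its log2 fold change from −0.21 to 0.03. NBN was not called either, at 4.35 ± 0.257 and 3.88 ± 0.292 FPKM with an interval from −0.31 to 0.01, although all 3 siDYRK2 values lay below the scramble values. The ratio of MRE11 to RAD50 within a library was 0.769 ± 0.0142 in the scramble and 1.01 ± 0.0296 in the siDYRK2 group (SD, n = 3), without overlap. Its exact two-sided permutation p was 0.1, the smallest that 3 against 3 libraries allow, and 0.2 after Benjamini-Hochberg adjustment over 10 such pairs.

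The BRCA proteins act on the trimmed end. BRCA1, a ubiquitin ligase and scaffold, read 4.63, 4.70 and 4.68 FPKM in the scramble libraries and 5.81, 6.35 and 5.67 FPKM in the siDYRK2 libraries. Its scramble values had an SD of 0.0361 FPKM, and all siDYRK2 values were higher. BRCA1 rose 1.27-fold (log2 fold change 0.32, SE 0.0526, limma adjusted p = 0.0032). Its ligase partner BARD1 rose 1.23-fold (limma adjusted p = 0.023), a call lost without scramble replicate 1 or any 1 siDYRK2 library (adjusted p up to 0.076), and the ratio of BARD1 to BRCA1 overlapped between groups (exact permutation p = 0.6, adjusted p = 0.67). BRCA2, which acts after the trimming, rose 1.38-fold from 1.61 ± 0.0802 to 2.21 ± 0.176 FPKM (± SD, n = 3) at a limma adjusted p of 0.0079. PALB2, which joins BRCA1 to BRCA2, was at 3.22 ± 0.156 and 3.13 ± 0.142 FPKM and was not called, with a 95% interval of the log2 fold change from −0.18 to 0.11. The ratio of PALB2 to BRCA2 did not overlap between groups, at 2.01 ± 0.166 against 1.43 ± 0.170 (exact permutation p = 0.1, adjusted p = 0.2).

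XRCC2, XRCC3 and RAD51C act in the strand pairing step of recombination, and all 3 rose. XRCC2 went from 5.07 ± 0.140 to 6.23 ± 0.227 FPKM (± SD, n = 3) at a limma adjusted p of 0.0037, XRCC3 rose 1.17-fold (adjusted p = 0.027) and RAD51C rose 1.24-fold (adjusted p = 0.048). XRCC3 and RAD51C were close to the threshold, and RAD51C lost the call when any 1 library was left out (limma adjusted p up to 0.14). XRCC3 lost it without any 1 library other than scramble replicate 2 (adjusted p up to 0.080). Exons of KLC1 on the other strand cover 76.7% of the exon bases of XRCC3, and it is not given whether the authors' counting used strand, so the XRCC3 values are uncertain. KLC1 averaged 9.99 FPKM with the scramble siRNA and 11.7 FPKM with siDYRK2.

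RAD51AP1, which stimulates strand pairing, had the second smallest adjusted p of the recombination genes. Its values were 3.91, 3.71 and 3.62 FPKM in the scramble libraries and 6.34, 5.80 and 6.51 FPKM in the siDYRK2 libraries, and the lowest of the latter exceeded the highest of the former. RAD51AP1 rose 1.66-fold (log2 fold change 0.66, SE 0.0578, limma adjusted p = 1.9e-04). RAD54L, a motor protein of the same step, spread over 0.86 to 1.55 FPKM in the scramble and 1.49 to 1.90 FPKM in the siDYRK2 libraries, so the groups overlapped. RAD54L was called when scramble replicate 2 was left out (limma adjusted p = 0.031). With all libraries it was not called, and the 95% interval of its log2 fold change ran from −0.0043 to 0.73.

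BLM, RMI1 and RMI2 belong to the complex that takes apart the double junctions left by recombination, and all 3 were higher. The helicase BLM read 1.54, 1.56 and 1.56 FPKM in the scramble libraries and 2.79, 2.56 and 2.49 FPKM in the siDYRK2 libraries. The scramble libraries hardly differed for BLM, and the siDYRK2 libraries were all well above them. BLM rose 1.68-fold (log2 fold change 0.60, SE 0.0650, limma adjusted p = 4.8e-04). RMI1, a scaffold subunit, read 11.24, 11.31 and 12.23 FPKM in the scramble and 16.52, 17.01 and 15.91 FPKM in the siDYRK2 libraries. RMI1 rose 1.42-fold (log2 fold change 0.49, SE 0.0460, limma adjusted p = 2.6e-04), again without overlap. RMI2 rose 1.27-fold (limma adjusted p = 0.0092), and its ratio to RMI1 overlapped between groups (exact permutation p = 0.2, adjusted p = 0.29).

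In the Fanconi core complex 3 of the 7 genes tested were higher and 1 was lower (beside 20.4% and 17.9% of all genes tested). FANCA, a large subunit, read 5.49, 5.59 and 5.25 FPKM in the scramble libraries and 8.70, 8.38 and 9.26 FPKM in the siDYRK2 libraries, far above. FANCA rose 1.61-fold (log2 fold change 0.64, SE 0.0505, limma adjusted p = 1.2e-04). Its partner FANCG read 8.86, 9.15 and 8.66 FPKM in the scramble and 11.44, 11.23 and 10.60 FPKM in the siDYRK2 libraries. The FANCG groups did not overlap, and FANCG rose 1.25-fold (log2 fold change 0.30, SE 0.0437, limma adjusted p = 0.0017). FANCE, the subunit that contacts FANCD2, rose 1.20-fold (limma adjusted p = 0.024), with siDYRK2 replicate 3 at 5.67 FPKM and the other two at 4.92 FPKM. The FANCE call was lost when any 1 scramble library was left out (adjusted p up to 0.062).

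FANCC, which binds FANCE in the core complex, went the other way. It read 1.63, 1.66 and 1.65 FPKM in the scramble libraries and 1.04, 0.98 and 1.08 FPKM in the siDYRK2 libraries. Both groups were narrow and the siDYRK2 values were all lower. FANCC fell 1.59-fold in mean FPKM, and its log2 fold change was −0.49 (SE 0.0716) at a limma adjusted p of 0.0019, and it was called under each of the 14 alternative settings that tested it. The gene lies at chr9:95099054-95426796 on the minus strand (GRCh38). The table gives 1 value per gene, and which FANCC transcripts changed was not analysed here.

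The other core genes were low and were not called. FANCL, the ubiquitin ligase subunit, was at 1.52 ± 0.0100 and 1.70 ± 0.0693 FPKM, with a 95% interval of the log2 fold change from −0.03 to 0.28. FANCF was at 1.01 ± 0.110 and 1.22 ± 0.125 FPKM (interval −0.04 to 0.41). FANCM, the translocase that brings the complex to DNA, was at 0.530 ± 0.0529 and 0.723 ± 0.00577 FPKM (limma adjusted p = 0.081). For FANCL, FANCF and FANCM every siDYRK2 value lay above every scramble value. FANCB, under the expression minimum, read 0.21, 0.20 and 0.15 FPKM in the scramble and 0.28, 0.30 and 0.26 FPKM in the siDYRK2 libraries. The intervals of FANCL and FANCF include increases as large as some that were called, so equal levels are not shown.

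Of the ubiquitin step, the conjugating enzyme and both substrates were higher, and the ligase subunit FANCL was not called. UBE2T, the conjugating enzyme that works with FANCL, read 12.72, 12.96 and 11.51 FPKM in the scramble libraries and 18.61, 16.98 and 17.90 FPKM in the siDYRK2 libraries. There was no overlap, and UBE2T rose 1.44-fold (log2 fold change 0.51, SE 0.0558, limma adjusted p = 5.0e-04). The ratio of UBE2T to FANCL went from 8.16 to 10.5 without overlap (exact permutation p = 0.1, adjusted p = 0.2). FANCD2, the substrate that marks the crosslink, read 2.52, 2.19 and 2.0 FPKM in the scramble and 3.73, 3.33 and 3.72 FPKM in the siDYRK2 libraries. The scramble values of FANCD2 were more spread than those of FANCC or BLM, but none reached the siDYRK2 range. FANCD2 rose 1.61-fold (log2 fold change 0.58, SE 0.0848, limma adjusted p = 0.0017) and its partner FANCI rose 1.42-fold from 3.45 ± 0.319 to 4.89 ± 0.110 FPKM (± SD, n = 3) at a limma adjusted p of 0.0020. BRIP1, a helicase that binds BRCA1, was at 0.787 ± 0.0351 and 0.980 ± 0.0656 FPKM and was not called (limma adjusted p = 0.11). Its siDYRK2 values all lay above the scramble values.

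**Figure D2:**
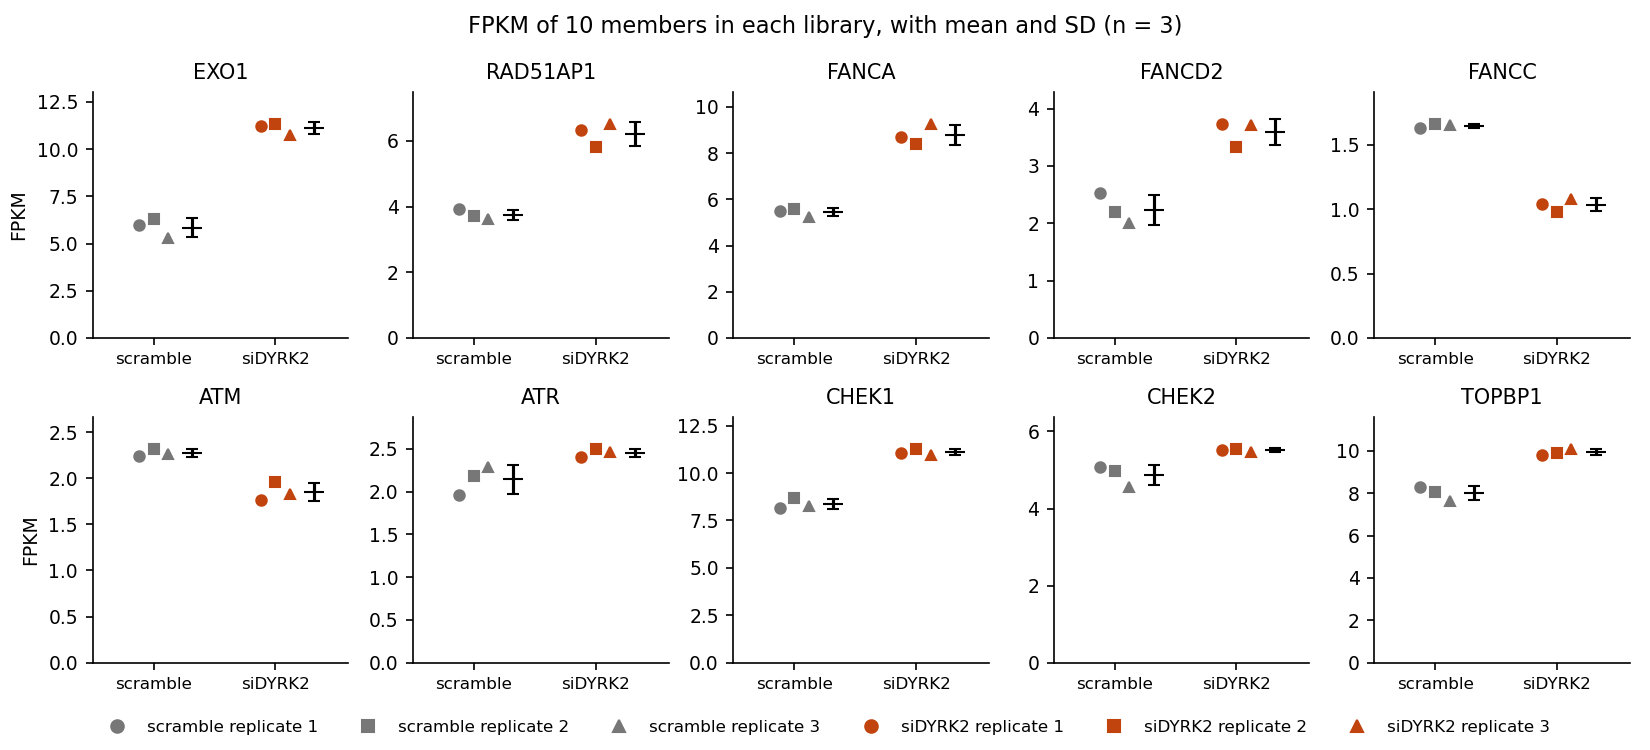
FPKM of 10 of the genes in each library, 3 scramble (gray) and 3 siDYRK2 (orange) libraries per panel, with the mean and SD as black bars; each axis starts at 0. FANCC and ATM sit lower in the siDYRK2 libraries, and the other genes shown sit higher, of which ATR was not called.

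Within the checkpoint the kinase ATM was lower and the kinase ATR was not called. ATM, which responds to double-strand breaks, read 2.24, 2.32 and 2.26 FPKM in the scramble libraries and 1.77, 1.96 and 1.83 FPKM in the siDYRK2 libraries. The groups did not overlap, and ATM fell 1.23-fold (log2 fold change −0.24, SE 0.0629, limma adjusted p = 0.022). This call was lost under 7 of 15 alternative settings, with limma adjusted p up to 0.074. They include leaving out any 1 of the 6 libraries other than siDYRK2 replicate 2. ATR, which responds to single-stranded DNA at stalled forks, read 1.96, 2.18 and 2.29 FPKM in the scramble and 2.40, 2.50 and 2.46 FPKM in the siDYRK2 libraries. All siDYRK2 values of ATR were above the scramble values, but ATR was not called (log2 fold change 0.16, 95% interval 0.0019 to 0.32, limma adjusted p = 0.10). The ratio of ATR to ATM was 0.875, 0.940 and 1.01 in the scramble libraries and 1.36, 1.28 and 1.34 in the siDYRK2 libraries. It thus did not overlap, with a difference of 0.49 on the log2 scale (exact permutation p = 0.1, adjusted p = 0.2).

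The effector kinases and the ATR activator were higher. CHEK1, the kinase downstream of ATR, read 8.16, 8.69 and 8.26 FPKM in the scramble libraries and 11.05, 11.28 and 10.96 FPKM in the siDYRK2 libraries. CHEK1 rose 1.33-fold without overlap (log2 fold change 0.39, SE 0.0396, limma adjusted p = 3.8e-04). CHEK2, downstream of ATM, read 5.07, 4.98 and 4.57 FPKM in the scramble and 5.53, 5.55 and 5.46 FPKM in the siDYRK2 libraries. It rose 1.13-fold (log2 fold change 0.16, SE 0.0510, limma adjusted p = 0.040), a call lost when any 1 library other than scramble replicate 1 was left out (adjusted p up to 0.10). The ratio of CHEK1 to CHEK2 was 1.72 ± 0.101 in the scramble and 2.01 ± 0.0177 in the siDYRK2 group (SD, n = 3), without overlap (exact permutation p = 0.1, adjusted p = 0.2). TOPBP1, the scaffold that activates ATR, read 8.29, 8.05 and 7.64 FPKM in the scramble and 9.79, 9.91 and 10.09 FPKM in the siDYRK2 libraries. Here too the groups were apart, and TOPBP1 rose 1.24-fold (log2 fold change 0.30, SE 0.0427, limma adjusted p = 0.0017). Of all 10 ratios between partners, 5 did not overlap, and none can pass 0.05 with 3 libraries per group. No share was counted for ratios of other gene pairs, so this count has no background beside it. Among single genes tested, 27.4% lay wholly above and 24.3% wholly below the scramble libraries.

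Further genes of the same pathways and of end joining were counted in the same fit. Their shares called higher are read against the 20.4% of all genes tested. Of 31 recombination genes beyond the 17, 12 were higher (38.7%) and 2 lower, at a median of 0.16 (log2). EME1, a junction nuclease subunit, rose (log2 fold change 0.73), its catalytic partner MUS81 fell (−0.36), and RPA1, which coats single-stranded DNA, rose (0.33). Of 15 further Fanconi genes 3 were higher (20.0%, no more than the background) and 0 lower, with a median of 0.08, and the 3 were USP1, WDR48 and RFWD3, at log2 fold changes of 0.16, 0.22 and 0.15. USP1 and WDR48 form the enzyme that removes ubiquitin from FANCD2. Of 17 further checkpoint genes 5 were higher (29.4%) and 3 lower, with a median of 0.08. The fork protection genes CLSPN (0.65), TIPIN (0.57) and TIMELESS (0.32) had the smallest adjusted p of these and rose. Of 17 genes of end joining, the other main route of break repair, 6 were higher (35.3%) and 2 lower, with a median of 0.10, PRKDC being at 0.50. Whether these lists differ from the 34 genes was not tested.

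**Figure D3:**
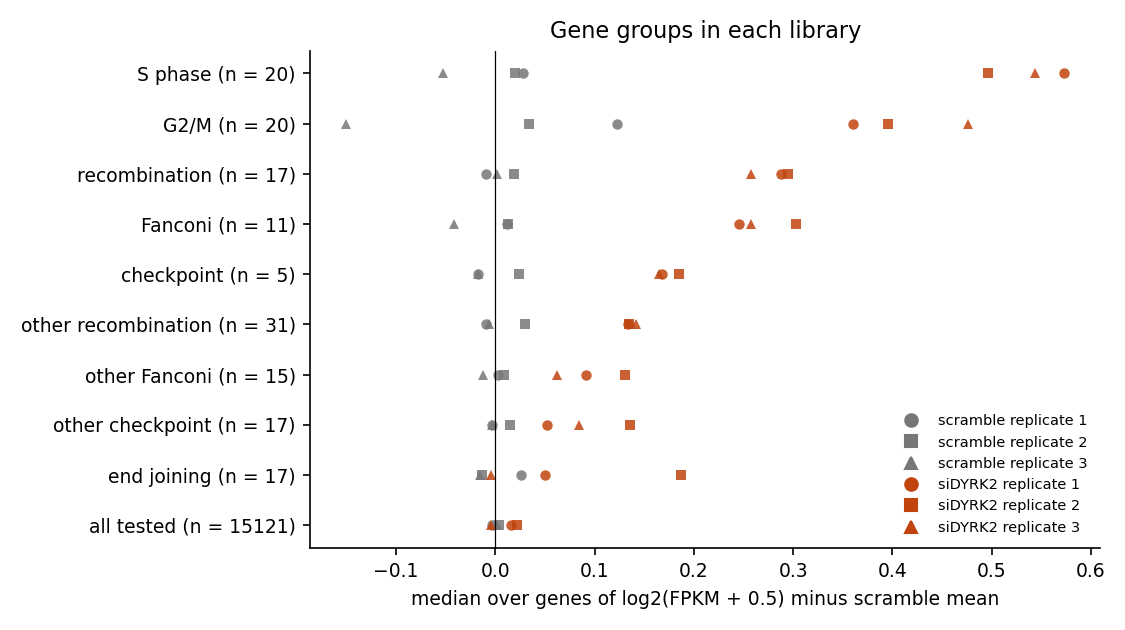
Median over the genes of each group of log2(FPKM + 0.5) minus the scramble mean, in each of 3 scramble (gray) and 3 siDYRK2 (orange) libraries; n is the number of genes tested. The recombination and Fanconi medians lie at 0.25 to 0.30 in the siDYRK2 libraries, below those of the S phase genes and above those of the further pathway genes.

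Cell cycle genes were higher in the same libraries. All 20 S phase genes listed were higher (median log2 fold change 0.53), as were 17 of 20 G2/M genes (0.40) and 8 of 13 E2F and retinoblastoma family genes (0.20). In the last list E2F1 rose 1.54-fold and E2F2 rose 2.16-fold, whereas RBL2, a transcriptional repressor in the retinoblastoma family, fell 1.58-fold. The S phase median lay 0.57, 0.50 and 0.54 above the scramble mean in siDYRK2 libraries 1 to 3. The G2/M median lay 0.36, 0.40 and 0.48 above it, and spread from −0.15 to 0.12 among the scramble libraries. Scramble replicate 3, the lowest in G2/M genes, was also the lowest scramble library for 17 of the 33 repair genes tested (51.5%), compared with 35.4% of all genes tested. Without that library 18 of the repair genes were higher and 1 was lower. Of all genes tested without it, 17.8% were higher and 15.7% lower, compared with 20.4% and 17.9% with all libraries. The part of the cell cycle genes in the repair genes' values was not tested.

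Of the 33 repair genes tested, 10 start within 1000 bases of another tested gene on the other strand (30.3%, compared with 18.9% of 14565 tested genes with a position). Genes below the minimum mean of 0.5 FPKM were not counted as neighbours. Of the neighbours counted, 4 were called in the direction opposite to their partner. RAD51AP1 starts 419 bases from C12orf4, which read 3.06, 3.33 and 3.29 FPKM in the scramble libraries and 2.29, 2.23 and 1.81 FPKM in the siDYRK2 libraries. C12orf4 fell with a log2 fold change of −0.52 (limma adjusted p = 0.0031) while RAD51AP1 rose. BRCA1 starts 127 bases from the noncoding gene NBR2, which fell from 9.19 ± 0.870 to 7.60 ± 0.471 FPKM (± SD, n = 3) at a limma adjusted p of 0.031. XRCC3 starts 304 bases from ZFYVE21, which fell with a log2 fold change of −0.22 (limma adjusted p = 0.016). ATM, itself lower, starts 190 bases from NPAT, an activator of histone genes in S phase. NPAT rose from 4.0 ± 0.210 to 4.61 ± 0.146 FPKM (± SD, n = 3) at a limma adjusted p of 0.033. FKBP3, 628 bases from FANCM, rose with a log2 fold change of 0.22 (limma adjusted p = 0.0024), and FANCM itself was not called. DCTN5, ANKRD49, HNRNPK, HSCB and CIDECP1, beside PALB2, MRE11, RMI1, CHEK2 and FANCD2, were not called. Both genes were called in 4 of the 10 pairs, with opposite directions in all 4. Among all 1408 such pairs of tested genes both were called in 235 (16.7%), with opposite directions in 82 of these (34.9%). No test was made on these counts, and 1 of the 4 pairs rests on XRCC3 and 1 on ATM, whose calls were lost under several settings. Exons of KLC1 on the other strand also cover 76.7% of the exon bases of XRCC3, so the direction of that pair is uncertain.

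**Figure D4:**
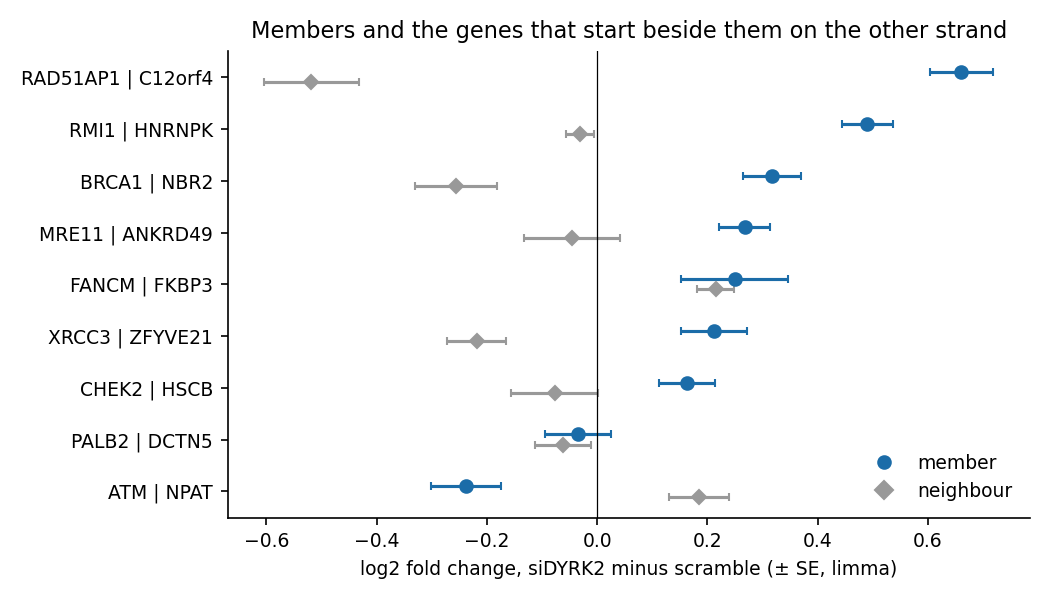
Log2 fold change (siDYRK2 minus scramble, with SE from limma) of 9 repair genes and of the gene that starts beside each on the other strand; the pair of FANCD2 and CIDECP1 is not drawn. RAD51AP1, BRCA1 and XRCC3 lie above 0 with their neighbours below, and ATM lies below 0 with NPAT above.

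Reads of overlapping genes can enter some of these values. Exons on the other strand cover over 10% of the exon bases of XRCC3, RAD54L (25.1%, LRRC41), FANCA (23.6%, ZNF276), FANCL (18.7%, VRK2) and FANCF (11.3%, GAS2). For FANCA the overlapping gene ZNF276 went from a mean of 9.66 to 8.29 FPKM, against the direction of FANCA. On the same strand, exons of AC116366.3 cover 79.7% of the exon bases of RAD50, and that gene averaged 0.0133 FPKM with the scramble siRNA and 0.0333 FPKM with siDYRK2. Without the 5 genes overlapped on the other strand, 20 of the repair genes were higher and 2 lower. These calls are from the same fit, in which 20.4% of all genes tested were higher and 17.9% lower.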

How the data were processed

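RNA was extracted in Trizol with a DNase I step and sequenced on an Illumina platform by a company, per the labels' protocols. HISAT2, StringTie and GRCh38 are named without versions or roles, per the submitters' processing notes. The authors deposited FPKM per gene for 6 libraries, per the file headers. The annotation, strand use, treatment of shared reads and depth were not given in the sources used.

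Libraries were grouped as labelled, 3 against 3. All 15121 genes whose mean reached 0.5 FPKM entered a limma 3.58.1 fit of log2(FPKM + 0.5) (R 4.3.3, mean-variance trend, no block) and Benjamini-Hochberg adjustment at 0.05. The test was checked on simulated data. Fold values are ratios of mean FPKM, and log2 fold changes on the log2(FPKM + 0.5) scale understate those of low genes. Partner ratios had exact two-sided permutation tests. Gene positions and start sites came from GENCODE on GRCh38, of 1 principal transcript per gene, and promoters from RefSeq on GRCh38.p14.

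The 34 genes and all lists were chosen with earlier results of these data known. Values per library are given for the genes with the smallest adjusted p in each group (6 recombination, 5 Fanconi). They are also given for all 5 checkpoint genes and for genes called against their group's median. At most 3 genes are named per further list, by smallest adjusted p. Values of FANCB, which was not tested, and of KLC1, ZNF276 and the genes beside or overlapping the 34 were given outside these rules, after they were seen. Some genes are not reported here.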

Additional observations from a re-analysis of the deposited data

How the results depend on the processing

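Each of the 33 genes was refitted under up to 15 alternative settings, in 487 fits, of which 444 kept direction and side of the threshold, 40 lost a call, 3 gained one and 0 reversed. Of the 22 higher genes 17 were called in every setting that tested them. The calls of BARD1, RAD51C, XRCC3, FANCE and CHEK2 were lost in at least 1, as was that of ATM, and RAD54L, FANCM and BRIP1 gained one. The number of higher genes was 17 of 34 without the filter (7.67% of all genes tested in that setting), 20 of 25 at a mean of at least 2 FPKM (26.6%), and 18 to 20 of 33 when 1 library was left out (15.6% to 18.2%). The number of lower genes was 1 without the filter, at a mean of at least 2 FPKM (which leaves FANCC out) and with a replicate block, and 1 to 2 when 1 library was left out. Of all genes tested 7.08%, 21.5% and 15.35% were lower in these settings, and 14.0% to 15.7% with 1 library left out. The recombination median was 0.34 at a pseudocount of 0.1, 0.28 at a pseudocount of 1, 0.29 at a mean of at least 2 FPKM and 0.27 to 0.32 with 1 library left out. The Fanconi median was 0.32 at a pseudocount of 0.1 and 0.21 at a pseudocount of 1. It was 0.48 at a mean of at least 2 FPKM, where fewer genes are tested, and so stood above the recombination median there. A larger pseudocount shrinks log2 fold changes by arithmetic. The cause of the shifts with 1 library left out was not tested. With the replicate number as a block, 18 genes were higher (16.5% of all) and 1 lower. Deviations of same-numbered libraries correlated at −0.08, 0.02 and −0.09, and those of differently numbered libraries at −0.04 to 0.11. With 3 libraries per group these correlations cannot show whether same-numbered libraries were paired. Leaving out the 5 overlapped genes was chosen after seeing the data. Depth is unknown, and 3 libraries per group limit the precision.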
